A study of Mus musculus with 4 samples.

Results

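The genes described here control mTORC1, the kinase complex that couples amino acids, growth factors, oxygen and energy to protein synthesis. They are Ddit4, Sesn1, Sesn2, Sesn3, Deptor, Tsc1, Tsc2, Rheb, Mtor and Rptor, 10 of the 22180 genes measured. The set was chosen by earlier results on these same 4 arrays, in which Ddit4 differed from vehicle in the opposite direction to other targets of the stress factor ATF4. Each gene stands for the probe set with its single symbol, the brightest on average where there were several, and 11 probe sets matched.

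The cells were N9, an immortalised line of mouse microglia, grown in serum-containing medium. The series asks how dihydropyridines act on such cells, and nimodipine is a dihydropyridine that blocks L-type calcium channels. Total RNA was hybridised from vehicle-treated cells (2 arrays), cells given 10 µM nimodipine (1 array) and cells given 20 µM nimodipine (1 array). The labels name neither the vehicle nor the exposure time, do not say which vehicle array goes with which dose, and do not say that the vehicle arrays came from separate cultures. Should the doses have had separate vehicles, the gap between the vehicle arrays also holds any difference between those.

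mTORC1 is switched on at the lysosome by the small GTPase Rheb and holds the kinase mTOR, encoded by Mtor, and the scaffold Raptor, encoded by Rptor. The tuberous sclerosis complex of Tsc1 and Tsc2 turns Rheb off, and Ddit4, also called REDD1, acts through that complex to lower mTORC1 activity. The sestrins restrain mTORC1 through the machinery that senses amino acids, and Deptor binds mTOR directly as an inhibitor. In many cells transcription of Ddit4 is raised by low oxygen, glucocorticoids, DNA damage and ATF4. Sesn2 is also an ATF4 target, Sesn1 is a p53 and FOXO target, and Sesn3 is a FOXO target.

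Values are log2 expression, so a difference of 1 is a doubling or halving. Array medians ran from 5.02 to 5.06, and 5.04, the median of all values, is used here as a mark of dim signal. Of 12 microglial and macrophage markers, 10 averaged no less than that, with Cd68 between 13.50 and 13.55 on the 4 arrays. At 10 µM 9 of the 12 were lower than the vehicle mean, by a median of -0.13 over the list, with Itgam at -0.77, Ptprc at -0.43 and Csf1r at -0.28. At 20 µM 6 of the 12 were lower and the list median was 0.02. The summed log2 level of the 12 was 107.9 and 108.1 with vehicle, 106.2 with 10 µM and 108.1 with 20 µM, and its part in the 10 µM results was not tested. P2ry12 and Tmem119, which mark resident microglia, lay below 5.04 on every array. Markers of astrocytes, neurons, oligodendrocytes, and fibroblasts or endothelium had list medians between -0.06 and 0.15 at 10 µM and between -0.08 and 0.18 at 20 µM, and none of those genes was past 1. In these lists 2 of 5, 3 of 5, 3 of 4 and 2 of 6 measured genes also averaged no less than 5.04. The oligodendrocyte marker Mbp read 7.69 and 7.70 with vehicle. Reaching that mark therefore does not separate microglial markers from those of other cell types. In RNA from a whole culture, fewer cells of a type and less RNA per cell cannot be told apart.

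The promoters of Ddit4 and Sesn2 are shown because both genes are ATF4 targets and their arrays read differently. They are RefSeq sequence of build GRCm38.p6, 250 bases before to 50 bases after the annotated start, and 9 of the 10 genes had an entry, with 10 promoters in all. Capitals mark matches to ACGTG, the core of the hypoxia response element, and TGATGNAA, the core of the C/EBP-ATF response element, on both strands. CACGTG, the E-box, which contains ACGTG, was also searched. The Ddit4 window is chr10:59951721-59952020 on the minus strand and the Sesn2 window is chr4:132510407-132510706 on the minus strand.
Ddit4: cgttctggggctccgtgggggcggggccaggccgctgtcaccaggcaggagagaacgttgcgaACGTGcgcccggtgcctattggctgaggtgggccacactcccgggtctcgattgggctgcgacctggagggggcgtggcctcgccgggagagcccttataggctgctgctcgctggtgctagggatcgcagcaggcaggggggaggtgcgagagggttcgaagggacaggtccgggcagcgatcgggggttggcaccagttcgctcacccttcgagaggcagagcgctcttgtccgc
Sesn2: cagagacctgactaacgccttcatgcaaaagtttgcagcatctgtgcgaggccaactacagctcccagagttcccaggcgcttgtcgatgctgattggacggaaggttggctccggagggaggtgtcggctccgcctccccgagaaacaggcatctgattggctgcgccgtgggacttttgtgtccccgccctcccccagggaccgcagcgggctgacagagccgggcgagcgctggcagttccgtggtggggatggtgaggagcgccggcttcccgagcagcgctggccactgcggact

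The Ddit4 window held 1 ACGTG, beginning at position -187 relative to the start, and no TGATGNAA. The Sesn2 window held neither. Across the 10 promoters of these genes, 3 held ACGTG (Ddit4, Rheb and Rptor), 1 held CACGTG (Rheb) and 0 held TGATGNAA. Of all 32851 promoters in the table, 19.6% held ACGTG, 7.15% held CACGTG and 3.97% held TGATGNAA. Among promoters of other ATF4 targets, 8 of 26 held TGATGNAA (30.8%), those of Asns, Atf3, Chac1, Nupr1, Pck2, Slc7a11, Trib3 and Vldlr. Among promoters of hypoxia targets, 13 of 22 held ACGTG (59.1%). A match is only a run of letters in a short window, and elements further away were not searched.

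Ddit4 had the widest gap from vehicle in the set, a lower value on the 10 µM array. It read 9.06 and 8.99 with vehicle, 6.83 with 10 µM and 8.92 with 20 µM. The 10 µM array alone was low, and the 20 µM array lay just under both vehicle arrays. With 1 array at each dose, a difference due to the dose cannot be told apart from one of that culture or array. From the vehicle mean the difference was -2.20 at 10 µM, a 4.58-fold lower level, and -0.10 at 20 µM, beside -0.07 between the vehicle arrays. Against vehicle 1 or vehicle 2 as the only control, the 10 µM difference was -2.23 or -2.16. Only 13 genes of 22180 lay further below the vehicle mean at 10 µM. The set was chosen on this pattern, so no test is given for Ddit4. Its mean over both doses was -1.15, a value set by the 10 µM array, since it was -0.10 without that array and -2.20 without the 20 µM array.

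**Figure D1:**
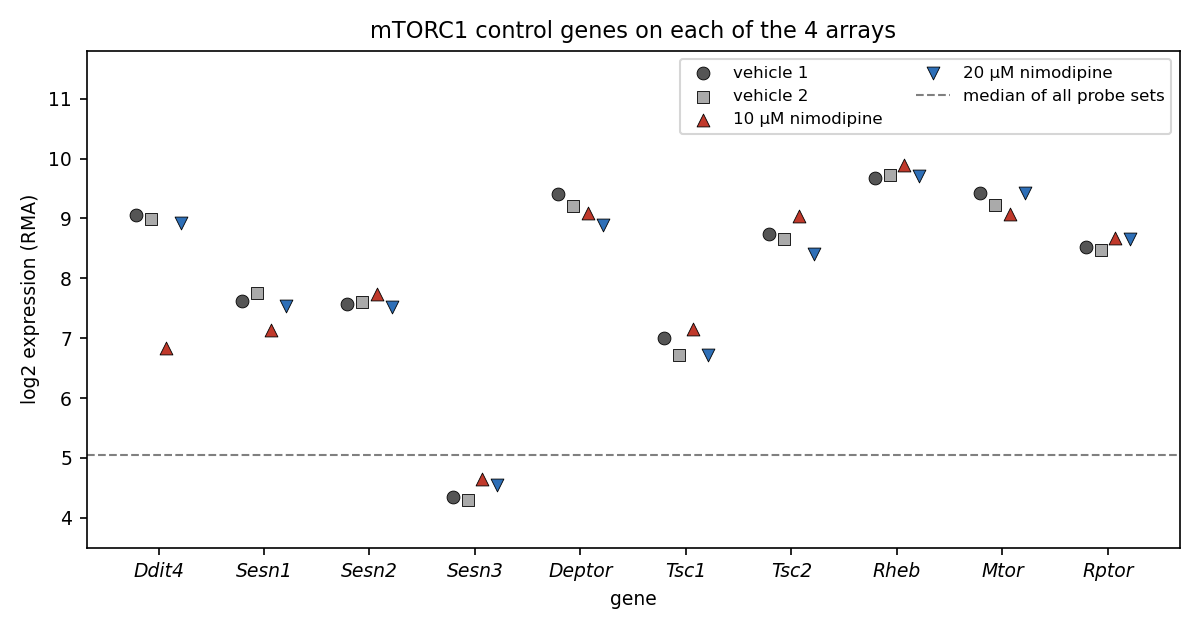
log2 expression (vertical axis) of the 10 mTORC1 control genes (horizontal axis), with 1 point per array and a dashed line at the median of all probe sets (5.04). Ddit4 at 10 µM, at 6.83, is the point that leaves its own group of 4, and Sesn3 lies below the dashed line on all 4 arrays.

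No other gene of the set was as much as 1 away from the vehicle mean at either dose. The past-1 count of the set was therefore 1 at 10 µM, lower, where 1.06% of all genes were lower by 1 or more and 0.514% higher. At 20 µM it was 0, where 0.0857% of all genes were past 1 either way, and the vehicle arrays differed that far from each other in 0.113% of genes. Because the rule used these arrays, the counts describe the set and support nothing.

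The sestrins did not share a direction at 10 µM. Sesn1 read 7.63 and 7.75 with vehicle, 7.14 with 10 µM and 7.54 with 20 µM. Both nimodipine arrays lay below both vehicle arrays, the 10 µM array by more. Its differences from the vehicle mean were -0.55, a 1.47-fold lower level, and -0.15, beside 0.12 between the vehicle arrays. Sesn2, a sestrin that senses leucine, stood at 7.57 and 7.61, then 7.74 at 10 µM and 7.53 at 20 µM. It was above both vehicle arrays at the lower dose, by 0.14 over their mean, and below both at the higher dose, by -0.07. Sesn3 stood at 4.35 and 4.30, then 4.65 and 4.56, higher than vehicle at both doses by 0.32 and 0.23. All 4 of its values were below the median of all probe sets, so no fold is given.

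Deptor was lower at both doses. Its vehicle values were 9.41 and 9.21, against 9.08 at 10 µM and 8.89 at 20 µM. Both nimodipine arrays lay below both vehicle arrays, with differences of -0.23 and -0.43 from the vehicle mean. The vehicle arrays themselves differed by -0.20. A second Deptor probe set, dimmer on average, read 8.06, 8.01, 7.78 and 7.91 on the same arrays, with differences of -0.25 and -0.12. The probe sets had the same direction at both doses, but the 20 µM array was the lower nimodipine array in the first and the higher in the second.

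Tsc1 and Tsc2, whose proteins form the complex that inactivates Rheb, were both higher at 10 µM and both lower at 20 µM. Tsc2 read 8.74 and 8.66 with vehicle, 9.04 with 10 µM and 8.41 with 20 µM. Its doses lay on opposite sides of both vehicle arrays, by 0.34 and -0.29 from their mean, beside -0.07 between those arrays. Tsc1 stood at 7.01 and 6.72, then 7.16 at 10 µM and 6.72 at 20 µM. The 10 µM array was above both vehicle arrays by 0.29 over their mean, and the 20 µM array was level with the lower of them. The vehicle arrays of Tsc1 differed by -0.29, as much as that 10 µM difference.

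Rheb, the activator of the complex, read 9.68 and 9.73 with vehicle, 9.89 with 10 µM and 9.72 with 20 µM. It was above both at 10 µM by 0.19 over their mean and between them at 20 µM. Mtor, the kinase, stood at 9.43 and 9.23, then 9.07 at 10 µM and 9.43 at 20 µM. It was below both vehicle arrays at 10 µM, by -0.26 from their mean, and equal at 2 decimals to the higher one at 20 µM, where it is counted as above both because its unrounded value is higher. The vehicle arrays of Mtor differed by -0.20. Rptor, the scaffold that brings substrates to the kinase, stood at 8.52 and 8.47, then 8.67 and 8.65. Its nimodipine values exceeded both vehicle values, by 0.17 and 0.15 over their mean, beside -0.05 between the vehicle arrays.

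**Figure D2:**
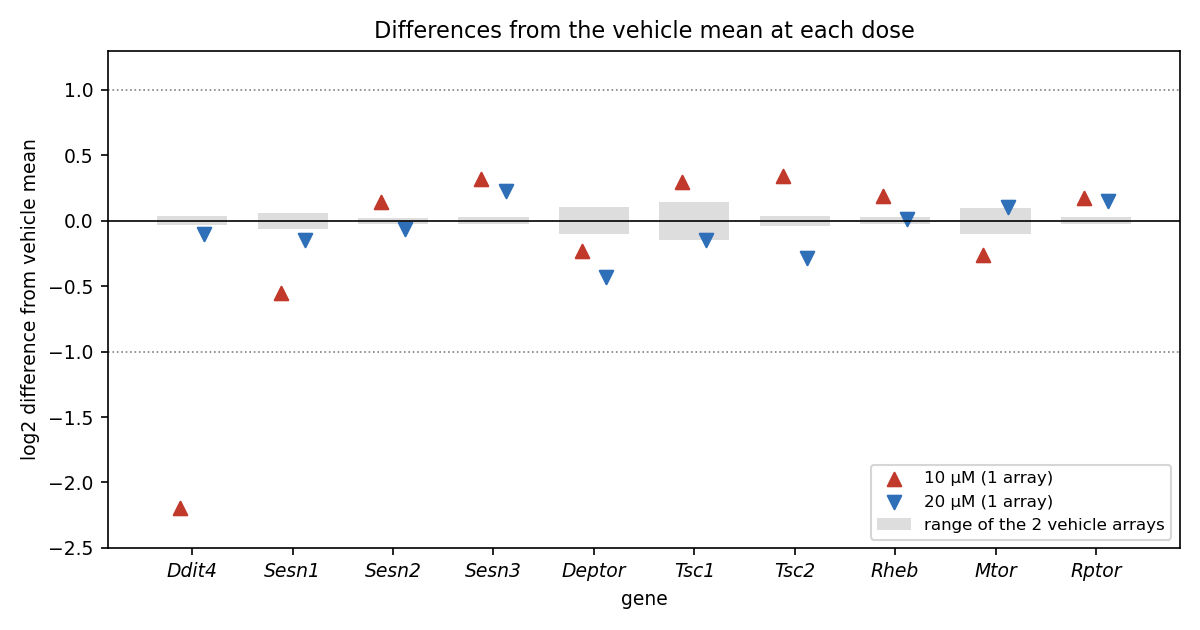
log2 difference from the vehicle mean (vertical axis) for each gene (horizontal axis) at 10 µM and 20 µM, 1 array each, with grey bars for the range of the 2 vehicle arrays and dotted lines at 1 and -1. Ddit4 at 10 µM (-2.20) passes the lower dotted line, and the other differences lie between -0.55 and 0.34.

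The 7 inhibitors of the pathway split into 3 lower and 4 higher at 10 µM (median difference 0.14) and 6 lower and 1 higher at 20 µM (median -0.14). Among Rheb, Mtor and Rptor, 2 exceeded the vehicle mean at 10 µM and all 3 at 20 µM, Rheb there by 0.01 (-0.017 with equal array medians). Over all genes the median was 0.01 at 10 µM and 0.00 at 20 µM, with 47.6% of genes lower and 52.4% higher at 10 µM and 50.7% lower and 49.3% higher at 20 µM. All 10 genes lay outside the vehicle range at 10 µM, 6 above it and 4 below, where 39.1% of all genes lay above and 35.4% below. At 20 µM 3 lay above (34.5% of all genes) and 5 below (35.1%). Both nimodipine arrays were above both vehicle arrays for Sesn3 and Rptor (19.2% of all genes) and below both for Ddit4, Sesn1 and Deptor (18.2%). The doses lay on opposite sides of the vehicle arrays for Sesn2, Tsc2 and Mtor (18.9%). None of these counts of 2 to 6 genes out of 10 is read as particular to the set, since large shares of all genes lay in the same positions. The doses share the vehicle arrays, so their directions are not independent.

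Nimodipine against vehicle was also compared by limma over all 22180 genes, 2 arrays against 2. It called 0 genes (0%) at an adjusted p under 0.05. An unadjusted p under 0.05 was found for 1191 genes, none of them among the 9 genes other than Ddit4. For the 9 genes other than Ddit4 the limma adjusted p lay between 0.792 and 0.989. Among them Sesn1 differed by -0.35 ± 0.17 (limma SE), Deptor by -0.33 ± 0.15, Sesn3 by 0.28 ± 0.13 and Rptor by 0.16 ± 0.12. The others lay between -0.08 and 0.10. The spread within nimodipine includes the difference between the doses, and an exact permutation test of 2 against 2 cannot go below p = 0.333. With 3 groups, and a lone array assumed to vary like the vehicle pair, the contrast of 10 µM alone called 353 genes (1.59%). None of the 9 was among them, the smallest limma adjusted p being 0.157 for Sesn1.

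The wider pathway was described from 5 lists with 77 measured genes: other mTOR complex subunits, the insulin and Tsc side, the lysosomal amino acid sensors, AMPK, and the substrates and outputs. Relative to the vehicle mean, 31 of these genes were higher and 46 lower at 10 µM, and the median difference was -0.05. Over all genes 47.6% were lower at 10 µM and 50.7% at 20 µM. At 20 µM the 77 split into 32 higher and 45 lower. Their median was -0.04, the same as the median gap of -0.04 between vehicle 2 and vehicle 1. None of the 77 was past 1 at either dose and limma called 0. Its unadjusted p was under 0.05 for 5 of them, and for 1191 of all 22180 genes. Differences at 10 µM ran from -0.94 for Castor2 to 0.81 for Eif4ebp1.

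The other mTOR complex subunits had a median of -0.04 at 10 µM, and Prr5, a subunit of mTORC2, differed by -0.29 at both doses, beside 0.23 between the vehicle arrays. Castor2, a relative of the arginine sensor of mTORC1, read 8.32 and 8.03 with vehicle, 7.23 with 10 µM and 7.96 with 20 µM, below both vehicle arrays at both doses. Nprl2, a subunit of the complex that turns off the Rag GTPases, differed by -0.54 at 10 µM and -0.15 at 20 µM. Lamtor2, part of the lysosomal anchor of the Rag GTPases, differed by 0.46 and -0.14. Over the 25 amino acid sensing genes the medians were 0.05 and -0.08. Pik3cd and Pik3ca, catalytic subunits of PI 3-kinase, differed by -0.80 and -0.50 at 10 µM and by -0.10 and -0.13 at 20 µM. Ddit4l, the paralogue of Ddit4, stood at 5.08 and 5.28, then 5.24 and 5.29, between the vehicle values at 10 µM and above both at 20 µM, where it was 0.11 over their mean beside 0.20 between the vehicle arrays.

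The AMPK list had 10 of 13 genes lower at 10 µM, with a median of -0.14, and 7 of 13 lower at 20 µM, with a median of -0.01, where 47.6% and 50.7% of all genes were lower. Prkaa1, a catalytic subunit of this energy-sensing kinase, differed by -0.70 at 10 µM and -0.20 at 20 µM, where the vehicle arrays differed by -0.21. Among the 16 substrates and outputs, Eif4ebp1, the translation repressor released by low mTORC1 activity and itself an ATF4 target, read 10.51 and 10.44 with vehicle, 11.29 with 10 µM and 10.53 with 20 µM. The 10 µM array was 1.76-fold above the vehicle mean. Mitf, a transcription factor held in the cytoplasm by mTORC1, differed by -0.93 at 10 µM and 0.13 at 20 µM. Rps6kb2, an S6 kinase, was lower at both doses, by -0.44 and -0.62, beside -0.24 between the vehicle arrays.

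Lists of genes with the same known inducers as Ddit4 or the sestrins were set beside them. They were chosen with earlier results known and are given as counts. At 10 µM 52.4% of all genes were higher and 47.6% lower, with 0.514% higher and 1.06% lower by 1 or more. The counts are to be read beside these shares. Of the 29 other ATF4 targets measured, 26 were higher at 10 µM, 12 of them by 1 or more, with a median of 0.83, and the median at 20 µM was 0.02. The 12 were Ddit3, Trib3, Cth, Aldh1l2, Wars, Asns, Slc7a11, Psph, Nupr1, Gpt2, Slc7a5 and Chac1, between 1.01 and 3.36 above the vehicle mean. The 3 that were lower were Slc7a3 (-0.44), Vldlr (-0.21) and Psat1 (-0.05), and all lay nearer to vehicle than Ddit4 at -2.20. Within this pathway, Eif4ebp1 (0.81), Sesn2 (0.14) and Ddit4 thus spanned both directions at 10 µM.

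Of 17 hypoxia targets, 14 were lower at 10 µM, 6 of them by 1 or more (1.06% of all genes), with a median of -0.75. At 20 µM 15 of the 17 were lower (50.7% of all genes), with a median of -0.13, beside -0.17 between the vehicle arrays. Egln3 and Adm lay further below the vehicle mean than Ddit4 (-3.84 and -3.60), and are given without a fold because both were dim at 10 µM (4.79 and 4.93). Slc2a1 (-1.78), Hk2 (-1.69), Bnip3 (-1.55) and Pdk1 (-1.28) lay nearer to vehicle than Ddit4. Of 13 FOXO targets 9 were lower at 10 µM, with a median of -0.61, and 9 at 20 µM, with a median of -0.10. The vehicle arrays differed by a median of -0.21 in the 13. Ccng2, an atypical cyclin, read 9.07 and 8.93 with vehicle, 6.37 with 10 µM and 8.63 with 20 µM, and Pik3ip1, an inhibitor of PI 3-kinase, differed by -1.15 at 10 µM. Among 13 glucocorticoid receptor targets 9 were lower at 10 µM, with a median of -0.06 and none past 1. At 20 µM 12 of these 13 were lower, with a median of -0.09, beside -0.11 between the vehicle arrays. Among 15 p53 targets 11 were higher and 4 lower at 10 µM, with a median of 0.17. The widest gaps were those of Btg2 (-1.81), Plk2 (1.26), Cdkn1a (-0.74) and Bbc3 (0.66). At 20 µM 9 of these 15 were lower, with a median of -0.12, beside -0.08 between the vehicle arrays. As limma called 0 of all genes, none in these lists passed the test. Whether any of these inducers bears on Ddit4 was not tested.

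**Figure D3:**
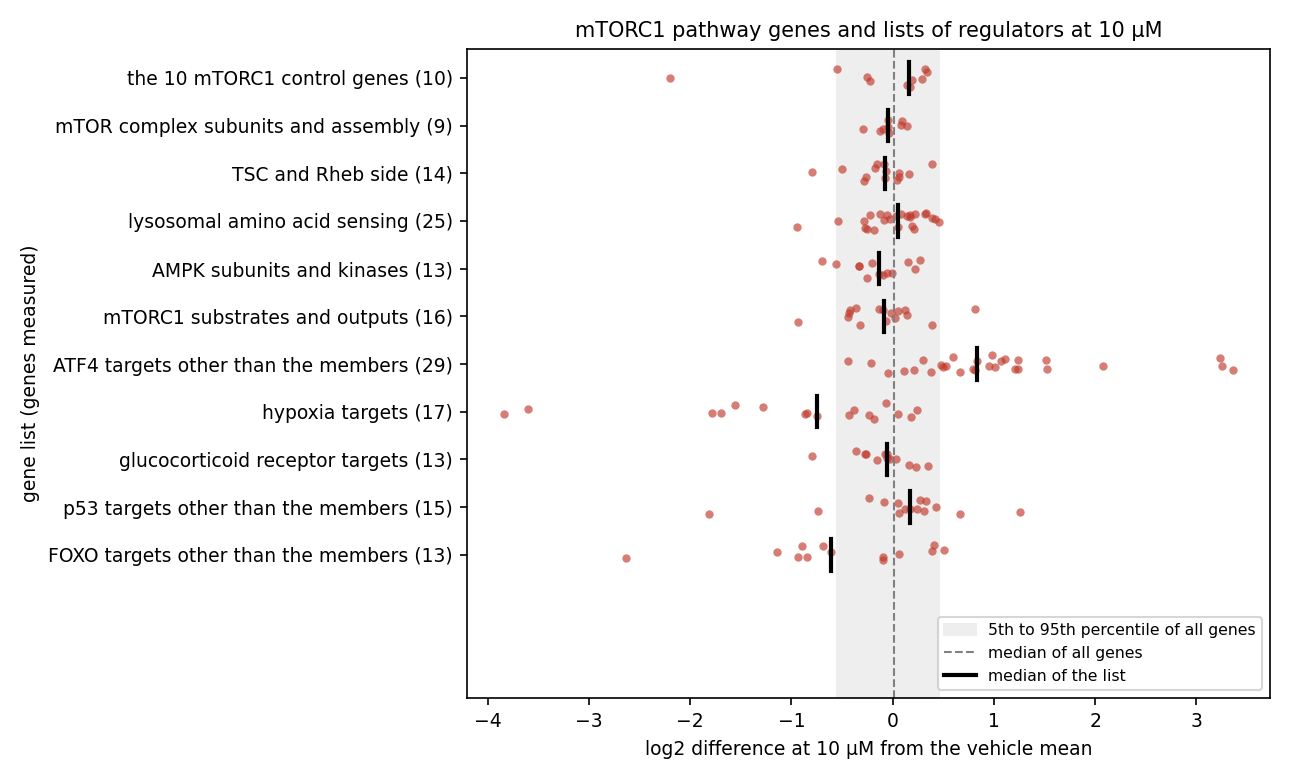
log2 difference at 10 µM from the vehicle mean (horizontal axis) for every measured gene of each list (vertical axis, genes measured in brackets), with black bars at list medians and a grey band from the 5th to the 95th percentile of all genes (-0.55 to 0.46). The ATF4 targets have their median at 0.83, the hypoxia targets at -0.75 and the FOXO targets at -0.61. The 5 lists of other mTORC1 pathway genes centre between -0.14 and 0.05, and the 10 control genes at 0.16.

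The genes with the profile nearest to Ddit4 over the 4 arrays were Mturn, Cysltr1, Sema4g, Olfm1, Themis2 and Klhl30. They were ranked by Euclidean distance between the array values, each set relative to its own vehicle mean, among 11622 named genes that on average were not dim. Their distances ran from 0.237 to 0.371 log2 units. Mturn, the nearest, read 8.53 and 8.45 with vehicle, 6.06 with 10 µM and 8.41 with 20 µM. All 6 lay between -2.43 and -1.84 at 10 µM and between -0.34 and 0.15 at 20 µM. This likeness follows from the ranking, which used these same 4 arrays, and supports nothing further. Only 4 of the 6 genes had a promoter entry, with 5 promoters in all. Among these 5 promoters, 1 held ACGTG, that of Sema4g, and 0 held TGATGNAA. For Sesn2, the nearest were Ssbp3, Slc1a6, Hpgds, Prpsap2, Poglut2 and Alad, at distances from 0.013 to 0.035. The Sesn2 profile is nearly flat, so small distances mean little there.

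**Figure D4:**
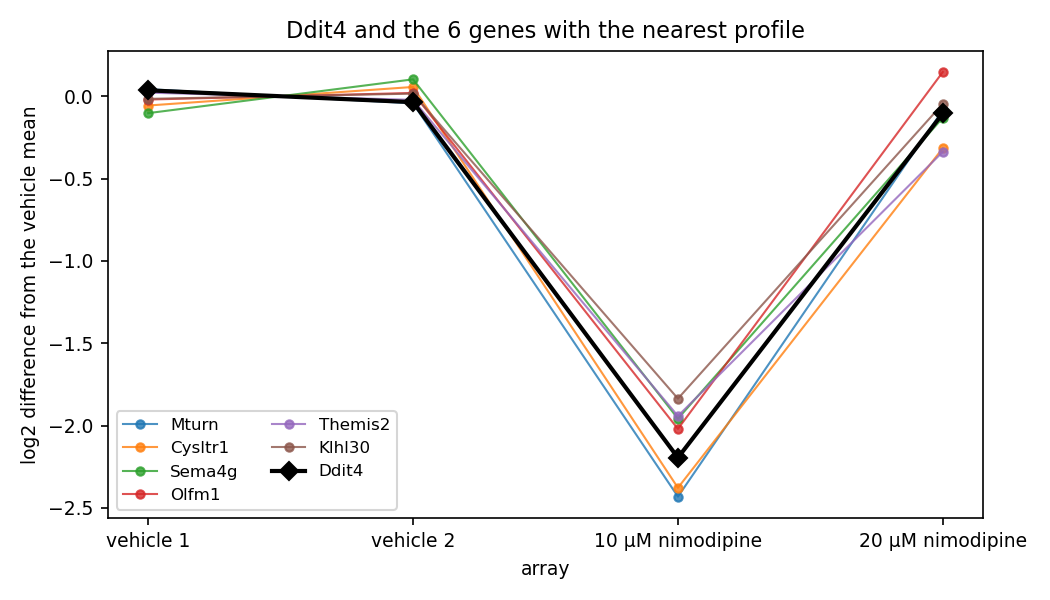
log2 difference from the vehicle mean (vertical axis) on each of the 4 arrays (horizontal axis) for Ddit4, in black, and the 6 genes with the nearest profile, in colour, 1 point per array. All 7 lines have their lowest point on the 10 µM array, between -2.43 and -1.84, and lie between -0.34 and 0.15 on the 20 µM array. The 6 genes were picked for this likeness on these same arrays.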

How the data were processed

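The submitters' processing notes name Affymetrix Expression Console 1.2.1.20 and RMA, and the authors deposited 1 log2 value for each probe set and array. RMA corrects background, quantile-normalises the arrays and combines probes by median polish. The quantile normalisation hides a change that most genes share. Precision is limited by the number of arrays, 4. Of 41345 probe sets, 23521 had 1 symbol in the array annotation, 1814 had several and 16010 were not listed. The probe set with the highest mean was kept, giving 22180 genes. RefSeq identifiers matched 23328 of the 23521 probe sets with 1 symbol and updated 0 symbols.

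Nimodipine was compared with vehicle by limma 3.58.1 in R 4.3.3 (lmFit, eBayes, Benjamini-Hochberg over all genes, threshold 0.05), tested on simulated data. Single doses were set against the vehicle mean and counted past 1. The p-values reflect the scatter of these arrays alone, perhaps technical. The members and lists were chosen with earlier results of these data known. Named genes were all 10 members, up to 4 genes per list by difference at 10 µM plus any past 1, and the 6 nearest profiles to Ddit4 and Sesn2. Some of these are given only in counts. Ddit4l, the lower ATF4 targets, the cell type markers and the genes further below vehicle than Ddit4 fall outside that rule and were named after their values were seen. Alternatives changed the probe set rule, a dim filter, scaling, variance model, groups, threshold and arrays used.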

Additional observations from a re-analysis of the deposited data

Results flagged for a closer look

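For 3 genes the 10 µM and the 20 µM array lay on opposite sides of both vehicle arrays, as 18.9% of all genes did. The 20 µM array was lower than the 10 µM array by -0.63 on the log2 scale for Tsc2 (8.41 against 9.04) and by -0.21 for Sesn2 (7.53 against 7.74). It was higher by 0.36 for Mtor (9.43 against 9.07). For Mtor the 20 µM value was level with vehicle 1 at 2 decimals. Each dose had 1 array, and these differences between the doses were not tested.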

How the results depend on the processing

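At 10 µM the direction of all 10 genes held under equal array medians, cyclic loess, the mean of probe sets and each vehicle array as the only control, and the count past 1 was 1 under each of these and at the lower threshold. At 20 µM the direction turned for Tsc1 (to 0.00067) and Rheb (to -0.015) with vehicle 2 as the only control, and for Rheb also with equal array medians (-0.017). The count of genes with both nimodipine arrays beyond both vehicle arrays was 5, from 4 to 6 under other settings and from 6 to 10 with an array left out, where fewer arrays are compared. limma called 0 genes in the main comparison, 12 with 3 groups (mean of both doses), 353 with 3 groups (10 µM) and from 0 to 353 with an array left out. The mean over both doses turned direction for Tsc2 with equal array medians (-0.0032). With an array left out, the nimodipine difference ran from -0.065 to 0.14 for Sesn2, -0.14 to 0.29 for Tsc1, -0.29 to 0.34 for Tsc2 and -0.26 to 0.10 for Mtor. The ends of these ranges are the differences at single doses, because leaving out a nimodipine array leaves only 1 dose. Equal array medians moved the median of all genes by -0.036 at 10 µM and -0.029 at 20 µM. No paired analysis was possible because the labels number only the vehicle arrays.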

Other observations

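The 13 genes further below the vehicle mean than Ddit4 at 10 µM were Egln3, Adm, Cytip, Il10ra, Serpinb1a, Ccng2, Tbc1d30, Mturn, Lrp2bp, Cysltr1, C130050O18Rik, C3ar1 and Klhl6. These were chosen after their values were seen. Il10ra, which encodes part of the receptor for interleukin-10, and C3ar1, the receptor of a complement fragment, stand beside Ccng2 and the hypoxia targets Egln3 and Adm. At 20 µM the 13 differed from vehicle by between -0.75 (Lrp2bp) and 0.54 (Serpinb1a). For Serpinb1a the vehicle arrays themselves read 8.36 and 9.21.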
